A study of Mus musculus with 12 samples.

Results

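The genes described here encode the machinery of oxidative phosphorylation, in yolk sacs of mouse embryos with and without Hypb, the histone methyltransferase gene now named Setd2. They were chosen by symbol: those starting with Ndufa, Ndufb, Ndufc, Ndufs, Ndufv, Uqcr, Cox4 to Cox8, Atp5 or Sdha to Sdhd. That rule found 94 of the 18193 genes measured, 82 of them subunits of the respiratory complexes or factors bound to them and 12 assembly factors whose names share the prefix (Ndufaf and Sdhaf genes). The rule uses names and no measured value, although the gene group was proposed with earlier results of these data known. All 94 were measured and none was removed by a filter on low values.

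The mitochondrial inner membrane holds a chain of electron carriers. Complex I takes electrons from NADH and complex II from succinate, complex III passes them to cytochrome c, complex IV hands them to oxygen, and complex V, the ATP synthase, uses the proton gradient that results. The members are the nuclear-encoded parts of these complexes; the remaining parts are made from mitochondrial DNA. Several complex IV subunits exist as a general form and as an alternative form that is best known from heart and skeletal muscle, testis or cells short of oxygen. The yolk sac nourishes the early embryo and forms its first blood, and its visceral endoderm is an absorptive and secretory epithelium.

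The study compared Hypb+/+ embryos, called wild type here, with Hypb-/- embryos, called knockout, at embryonic days E9.0 and E10.5, on a 129Sv/C57BL/6 background. According to the design text, knockout embryos looked little affected at the first stage and were near death at the second. Each sample was RNA from a pool of 4 yolk sacs hybridised to 1 Affymetrix mouse expression array, with 3 samples in each of the 4 groups and 12 arrays in all. The labels do not say which part of the gene was deleted. Because a yolk sac is a mixture, fewer cells of a type and less RNA per cell cannot be told apart in these values.

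Values are log2 expression values, so a difference of 1 is a 2-fold change, and they compare a gene with itself between arrays, not with another gene. Each gene is read by its brightest probe set, a group of short probes for 1 transcript. A gene is said to have risen, fallen or changed where limma, a linear model fitted to all 12 arrays, gave an adjusted p (Benjamini-Hochberg over 18193 genes) below 0.05. Errors of differences are standard errors (SE), and those of group means are standard deviations (SD, n = 3). With 3 arrays a group the median SE of a member's difference between 2 groups was 0.107.

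Setd2 itself was lower in every knockout array than in any wild type array of the same stage. At E9.0 the wild type arrays read 9.08, 9.03 and 8.83 and the knockout arrays 7.54, 7.99 and 7.53, a difference of -1.29 ± 0.13 (SE; adjusted p = 0.00207). At E10.5 the wild type arrays read 8.77, 8.70 and 8.66 and the knockout arrays 7.77, 7.81 and 8.07, a difference of -0.83 ± 0.13 (adjusted p = 0.00294). Visceral endoderm markers stood at a summed log2 level of 16.82 to 17.11 over the arrays, and primitive red blood cell markers at 15.58 to 15.96. Control probe sets set replicate 3 apart at each stage: at E9.0 the hybridisation control BioC exceeded BioB by 0.04 and -0.04 on those arrays against 1.40 to 1.58 on the others, and at E10.5 the dap control's 3' signal exceeded its 5' signal by 1.63 and 1.65 against 0.87 to 1.18. The labels name no batch. Replicate 3 holds both genotypes, and values without it are given below where they matter.

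In wild type yolk sacs many oxidative phosphorylation genes rose from E9.0 to E10.5, with risers in each of the 5 complexes. By limma 41 of the 94 members rose and 1 fell, against 13.4% of all genes that rose and 8.86% that fell. The median member changed by 0.275, against 0.03 for the median of all genes tested. In 58 members all 3 E10.5 arrays lay above all 3 E9.0 arrays and in 7 all lay below, against 22.7% and 17.3% of all genes.

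Complex I carried the most changes in number. Of its 28 accessory subunits, which surround the catalytic core, 15 rose and none fell. Ndufb2 read 10.57, 10.53 and 10.81 at E9.0 and 11.52, 11.63 and 11.44 at E10.5 in the wild type, with no overlap between the stages. Its change of 0.89 ± 0.12 (SE; adjusted p = 0.000224) is 1.86-fold. Ndufa6 read 10.42, 10.37 and 10.47, then 11.20, 11.34 and 11.32, a rise of 0.87 ± 0.088 (adjusted p = 3.8e-05). These 3 early and 3 late arrays each spanned 0.14 or less for Ndufa6, so the stages stood far apart. Ndufa3 read 11.78, 11.77 and 11.95, then 12.63, 12.73 and 12.56, a rise of 0.81 ± 0.09. Ndufa7, Ndufs4, Ndufs5, Ndufa13 and Ndufa2 rose by 0.70, 0.63, 0.62, 0.58 and 0.56.

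In the catalytic core of complex I 2 of 6 subunits rose, and all 6 lay above 0. These were Ndufv2 at 0.47, which holds an iron-sulfur cluster near the NADH site, and Ndufs1 at 0.39, which holds several such clusters. Ndufs3, another core subunit, changed by 0.02 (adjusted p = 0.941). The 8 complex I assembly factors, which help to build the complex without staying in it, included 1 that rose, Ndufaf3 at 0.55 ± 0.10 (adjusted p = 0.00238), and 1 that fell. That was Ndufaf4, which read 11.14, 11.06 and 10.95 and then 10.80, 10.52 and 10.40, a fall of 0.48 ± 0.16 on the log2 scale (adjusted p = 0.0487). A second Ndufaf4 probe set changed by 0.09, so the direction for this gene was not shared by both.

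Complex II, which also belongs to the citric acid cycle, split by subunit. Sdhb, the iron-sulfur subunit, rose by 0.45 ± 0.11 (SE; adjusted p = 0.00955) and Sdhd, a membrane anchor, by 0.43 ± 0.11 (adjusted p = 0.0167). Sdha, the flavoprotein, changed by -0.017 and Sdhc, the other membrane anchor, by -0.097, and neither passed the test. Of the 4 complex II assembly factors, Sdhaf4 rose, by 0.43.

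In complex III 5 of 8 subunits rose, all of them small: Uqcr10 by 0.70, Uqcr11 by 0.58, Uqcrh by 0.56, Uqcrq by 0.48 and Uqcrb by 0.33. The large core subunits and the Rieske iron-sulfur protein did not pass the test, with 0.27 for Uqcrc2, -0.12 for Uqcrc1 and -0.12 for Uqcrfs1. Among the 10 general complex IV subunits 5 rose. Ndufa4, once assigned to complex I and now to complex IV, read 11.05, 11.23 and 11.37 and then 12.03, 11.99 and 12.14, a rise of 0.84 ± 0.14 (SE; adjusted p = 0.00102). Cox6c rose by 0.68, Cox6b1 by 0.38, Cox8a by 0.38 and Cox7a2 by 0.33. Cox4i1 changed by 0.18, Cox6a1 by 0.02 and Cox5a by -0.083, none past the test. The Cox8a rise was not shared by all of its probe sets, since a dim one, at a mean of 4.37, changed by -0.04; a bright one, at 11.3, changed by 0.43.

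In complex V all 5 small membrane subunits measured, which sit beside the proton channel, rose. Atp5l, subunit g, read 11.39, 11.29 and 11.21 at E9.0 and 12.16, 12.28 and 12.13 at E10.5, a rise of 0.89 ± 0.098 (SE; adjusted p = 6.9e-05). Atp5mpl rose by 0.66, Atp5j2 by 0.55, Atp5md by 0.50 and Atp5k by 0.45. Of the 4 stalk subunits, which tie the catalytic head to the membrane, Atp5o rose by 0.56 and Atp5j by 0.41. The head itself, called F1, had 2 risers among 5, the central stalk subunits Atp5e at 0.51 and Atp5c1 at 0.37. The other central stalk subunit, Atp5d, changed by -0.19 (adjusted p = 0.195), the lowest value of the 5. Atp5a1 and Atp5b, which form the catalytic ring, changed by -0.12 and -0.10 (adjusted p = 0.44 and 0.467). None of the 3 c-ring genes, Atp5g1, Atp5g2 and Atp5g3, passed the test (1 had an unadjusted p under 0.05), and they ranged from -0.19 to 0.15. Whether the changes of 2 such groups differ was not tested.

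**Figure D1:**
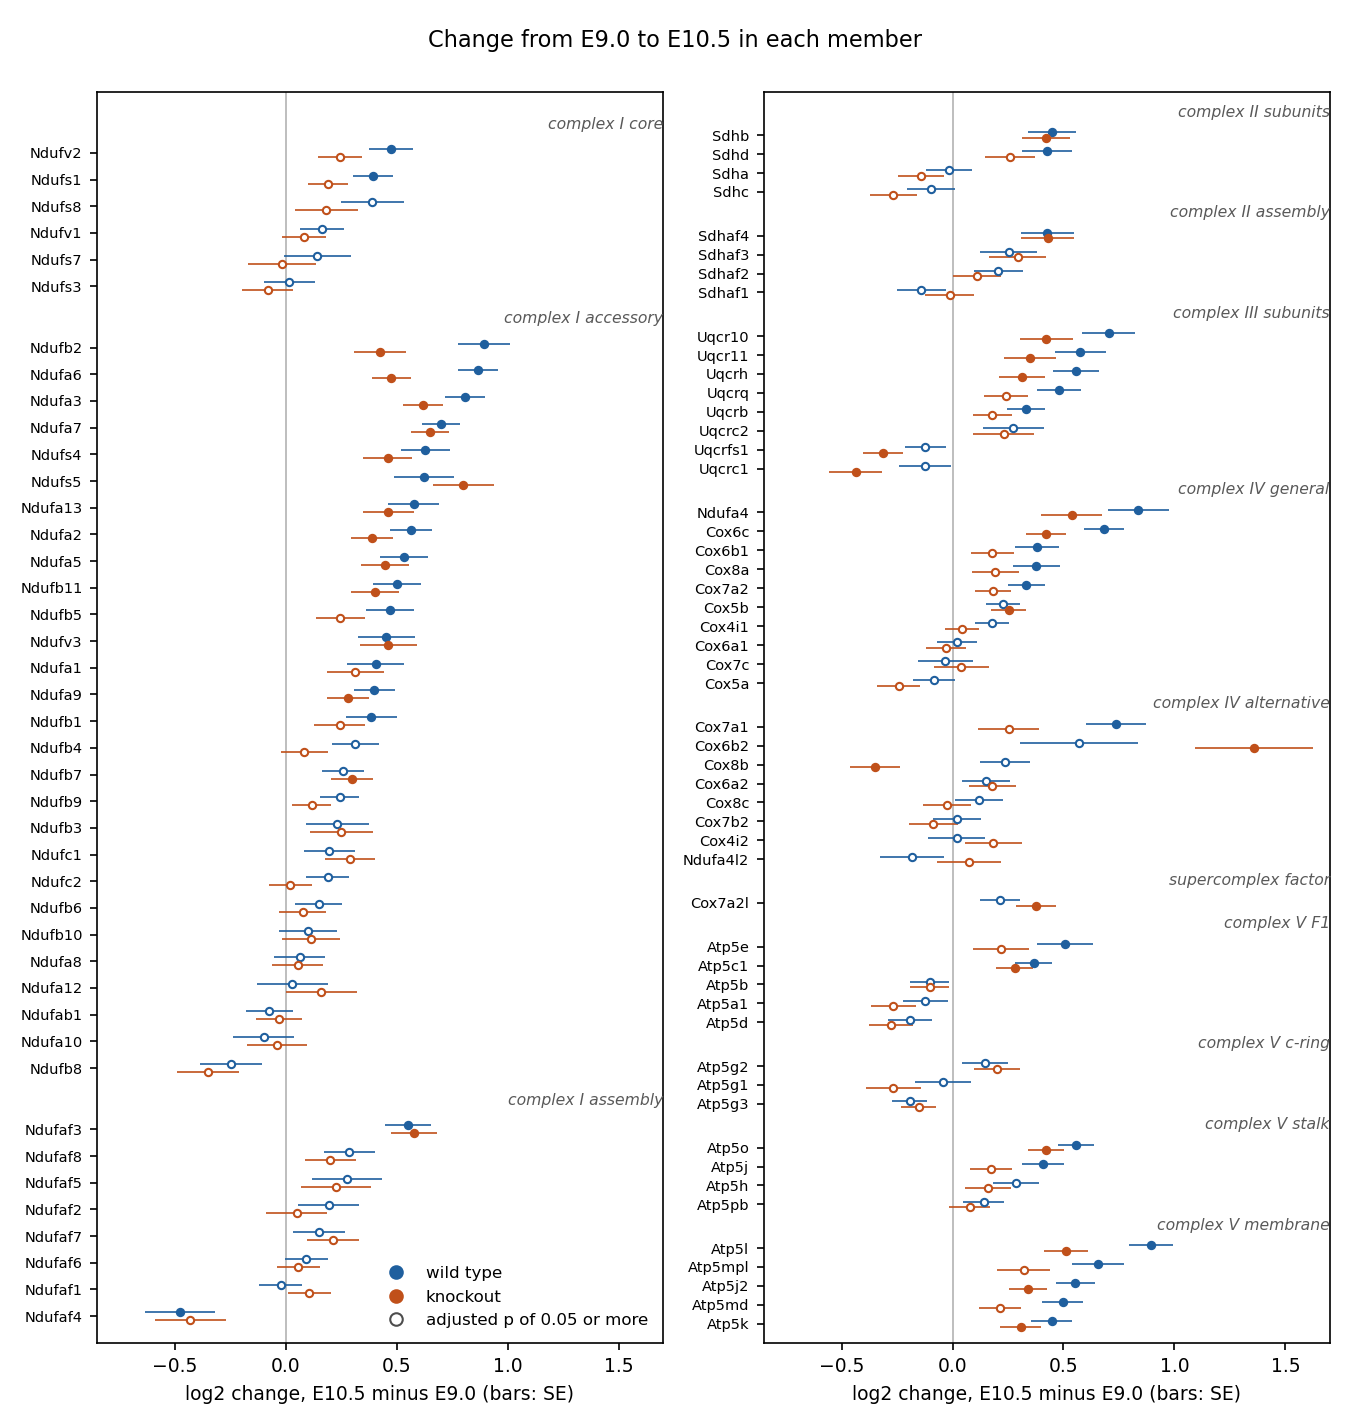
Log2 change from E9.0 to E10.5 (x axis, bars show the SE) for each of the 94 members, grouped by role, in wild type (blue) and knockout (orange); filled points have an adjusted p below 0.05. The blue points of all 5 complex V membrane subunits are filled and lie between 0.45 and 0.89, and the c-ring genes lie near 0.

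The stage differences depend in part on how arrays are scaled. Centring each array on its median instead of using the deposited scaling moved the median of all genes from 0.03 to -0.067 in the wild type and from 0.03 to -0.10 in the knockout. After that, 29 members rose and 3 fell in the wild type, against 9.61% of all genes higher and 13.5% lower, with a member median of 0.18. All 5 complex V membrane subunits and 11 of the 28 complex I accessory subunits still rose under that scaling. Without replicate 3 the member median of the wild type change was 0.32, and between the replicate 3 arrays alone it was 0.18. The actin control's 3' signal exceeded its 5' signal by 0.31 to 0.36 in wild type E9.0 arrays and by 0.44 to 0.59 in wild type E10.5 arrays, so this sign of RNA quality moved with stage. The summed visceral endoderm level was 16.87 to 16.93 and then 17.04 to 17.11, although 3 of its 18 markers rose and 4 fell. Markers of white blood cells rose in 10 of 12, with summed levels of 9.71 to 9.81 and then 11.28 to 11.50. Endothelial markers fell in 7 of 16 and rose in 1, with summed levels of 12.07 to 12.21 and then 11.48 to 11.85. Smooth muscle and mesenchyme markers rose in 4 of 15 and fell in 1, at 14.03 to 14.56 and then 14.69 to 14.92. Red blood cell markers fell in 2 of 12 and heart muscle markers in 2 of 20, and none of either rose. With the deposited scaling, which these marker counts use, 13.4% of all genes rose and 8.86% fell. The heart share of 10% was near the latter. The part of any of these in the rise was not tested. Members are bright as a group, with 76 above a 12-array mean of 9. Of these, 38 rose, against 20.3% of all genes above that level, a cut chosen after the data were seen.

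Promoter sequences of risers were examined because so many members moved together. NRF1 and the ETS factor GABPA are regulators known to bind promoters of respiratory chain genes, and YY1 is another factor known at such promoters. RefSeq promoter windows (GRCm38.p6, 250 bases before to 50 after the start) matched 78 of the 94 members by symbol. The letters GCGCATGCG stand for NRF1, CCGGAAG for ETS factors and AAGATGGCG for YY1, each searched on both strands. NRF1 letters can match on both strands at once, shifted by 1 base, and NRF1 and YY1 matches can share their outer bases. A pair of windows is shown by the 150 bases before the start, with matched bases in capitals. They were picked because each stretch holds whole matches of 1 motif and belongs to a gene that rose in both genotypes. The wild type rise of both genes passed in 23 of 23 alternative analyses. The knockout rise was less firm, passing in 17 of 23 for Atp5k and in 10 of 23 for Uqcr11.
Atp5k, chr5:108434400-108434549, minus strand: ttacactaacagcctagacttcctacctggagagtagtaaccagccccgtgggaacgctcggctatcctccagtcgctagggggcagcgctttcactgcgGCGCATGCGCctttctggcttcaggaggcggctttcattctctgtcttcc
Uqcr11, chr10:80406822-80406971, minus strand: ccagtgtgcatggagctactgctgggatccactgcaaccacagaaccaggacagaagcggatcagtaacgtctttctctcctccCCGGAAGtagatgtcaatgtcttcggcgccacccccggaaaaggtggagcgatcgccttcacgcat

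The capitals mark NRF1 letters on both strands in Atp5k and an ETS match in Uqcr11. Each window also holds the other motif, not whole within the stretch shown. Atp5k has an ETS match from base 13 after the start. Uqcr11 has an NRF1 match from base -5 that runs across the start. An NRF1 match was present in 9 of 78 member windows (11.5%) against 1.95% of 27025 genes. ETS matches were in 22 (28.2%) against 9.93%, and YY1 matches in 7 (8.97%) against 1.64%. At least 1 of the 3 motifs was in 41.0% of members and 12.7% of all genes. That share was 40.0% among the 35 members with a window that rose in the wild type and 41.9% among the other 43. A match is a description of letters in this window, and no binding was measured.

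In knockout yolk sacs, too, more of the genes rose than fell from E9.0 to E10.5. By limma 29 of 94 rose and 3 fell, against 14.4% and 9.17% of all genes, and the median member changed by 0.197, against 0.03 for all genes. Non-overlapping arrays were found for 40 members upward and 10 downward, against 20.7% and 13.8% of all genes. The count of members called by limma, 32 in all, leaned on single arrays. It was 16 without knockout E10.5 replicate 2, 21 without knockout E10.5 replicate 1, and 19 without either knockout E9.0 replicate 1 or replicate 2. Under median centring it became 9 risers and 11 fallers, against 8.96% of all genes higher and 16.6% lower, with a member median of 0.067. The member median was 0.29 over replicates 1 and 2 and 0.07 between the replicate 3 arrays. Cell type markers also moved with stage in the knockout: white blood cell markers rose in 11 of 12, heart muscle markers in 8 of 20, mesenchyme and smooth muscle markers in 6 of 15 with 1 fallen, and endothelial markers in 3 of 16 with 1 fallen. Red blood cell markers fell in 6 of 12 with none risen, and visceral endoderm markers fell in 8 of 18 and rose in 2. The summed level over knockout arrays was 9.74 to 9.91 at E9.0 and 11.17 to 11.36 at E10.5 for white blood cells. For red blood cells it was 15.84 to 15.96 and then 15.58 to 15.84, and the heart muscle level is given with the isoforms. The part of these in the members' changes was not tested.

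The knockout risers were largely those of the wild type. The 2 genotypes share no arrays, and 25 genes rose in both, which is 61% of the wild type risers and 86.2% of the knockout risers. Both tests use the same estimate of each gene's spread, so the calls are not independent. The same shares over all genes were not computed, so whether these are high for members is not known. Complex I accessory subunits again led in number, with 13 of 28. Ndufs5 rose by 0.80 ± 0.14 (SE; adjusted p = 0.00133), Ndufa7 by 0.65, Ndufa3 by 0.62, Ndufa6 by 0.48, Ndufs4 by 0.46, Ndufa13 by 0.46 and Ndufa5 by 0.45. Ndufaf3 rose by 0.58, Ndufa4 by 0.54 and Atp5l by 0.51. None of the 6 core subunits of complex I passed the test (1 had an unadjusted p under 0.05), with a median of 0.13. Of the 5 complex V membrane subunits 3 rose, and the c-ring genes again had 0 of 3, with none at an unadjusted p under 0.05. Cox7a2l, a factor that joins complexes III and IV, rose by 0.38 ± 0.091 (adjusted p = 0.0101), and changed by 0.21 in the wild type (adjusted p = 0.121).

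In the knockout 3 members fell with stage. Uqcrc1, a core subunit of complex III, read 11.29, 11.33 and 11.29 at E9.0 and 10.75, 10.70 and 11.15 at E10.5, a fall of 0.44 ± 0.12 on the log2 scale (adjusted p = 0.0177). Replicate 3 stood closest to the earlier stage, and the call was lost without knockout E9.0 replicate 2 or knockout E10.5 replicate 1 or 2, with adjusted p up to 0.075. Uqcrfs1, the Rieske protein, fell by 0.31 ± 0.092 (adjusted p = 0.0267), and that call was lost without knockout E9.0 replicate 2 or 3 or knockout E10.5 replicate 1 or 2. Cox8b fell by 0.35 and is described with the isoforms.

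The signed change with stage, where a larger fall counts as lower, was lower in the knockout than in the wild type for 68 of 94 members and for 9099 of all 18193 genes. The test of that difference itself, the knockout effect at E10.5 minus the knockout effect at E9.0, called 0 members by limma, against 0.187% of all genes. Its median over members was -0.12. An unadjusted p under 0.05 was found for 5 of 94 members, against 1510 of all 18193 genes, which is a larger share. The 5 were Cox8b at -0.59 (adjusted p = 0.204), Cox7a1 at -0.48, Ndufb2 at -0.47, Ndufa6 at -0.39 and Atp5l at -0.38. No member's stage change was therefore shown to differ between genotypes.

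**Figure D2:**
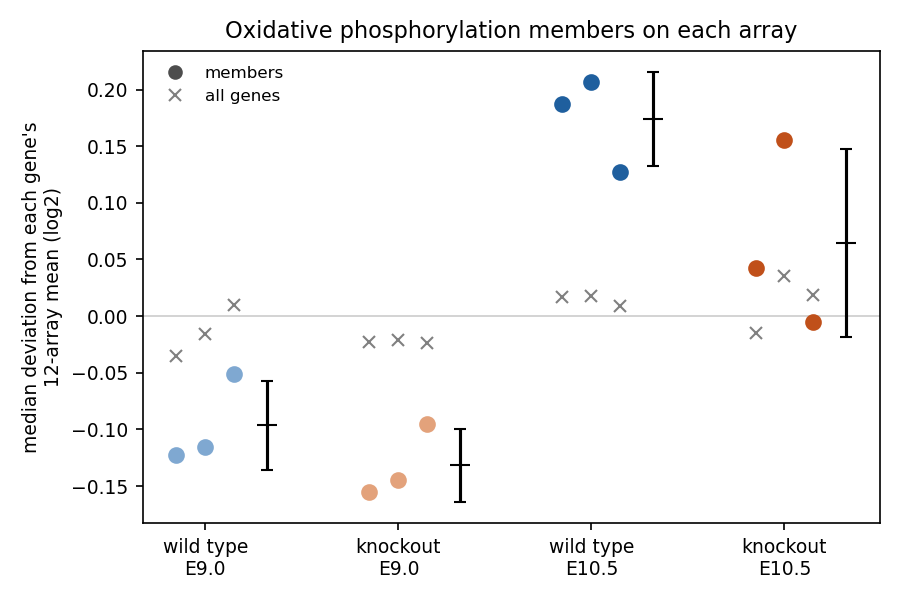
Median deviation of the 94 members from their own 12-array means on each array (circles, log2 units, y axis) by group (x axis), with the median over all 18193 genes (crosses) and the mean and SD of each group's 3 arrays. The wild type E10.5 arrays lie at 0.13 to 0.21 and the knockout E10.5 arrays at -0.0054 to 0.16, so these groups overlap.

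Array by array, the members' median deviation from their own 12-array means was -0.12 to -0.051 in wild type E9.0 yolk sacs and -0.16 to -0.095 in knockout E9.0 yolk sacs. At E10.5 it was 0.13 to 0.21 in the wild type. Knockout E10.5 arrays ranged from -0.0054 to 0.16, and the highest, replicate 2, lay inside the wild type range.

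At E9.0, on the probe sets used, 1 member was called between knockout and wild type, Cox7a1, which fell. No member rose and 1 of 94 fell, against 0.55% and 0.632% of all genes, and the median member differed by -0.0083, against -0.0067 for all genes. Knockout arrays lay wholly above wild type arrays in 8 members and wholly below in 13, against 8.56% and 9.42% of all genes. The 12 assembly factors had a median of -0.145, with 10 below 0 and 1 above. The other 82 members had a median of 0.0017. Of the 12, none was called, 2 had an unadjusted p under 0.05, and knockout arrays lay wholly below in 5 and wholly above in 1. For 88 of the 94 members the 95% confidence interval of the difference lay within 0.5 of 0 on the log2 scale. That bounds larger changes in these samples only for the probe set used, and some unused ones differed more, as given below. The difference nearest to a call was Sdhaf1, an assembly factor of complex II, at -0.43 (adjusted p = 0.0914).

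At E10.5 the knockout yolk sacs had slightly lower values for most members, but few differences were large enough to pass the test. By limma 5 of 94 fell and none rose, against 3.16% and 4.12% of all genes. The members that fell were Cox7a1, Cox8b, Uqcrq, Atp5l and Atp5j2. The median member differed by -0.12, against -0.013 for all genes, with 76 members below 0 and 16 above. In 24 members all knockout arrays lay below all wild type arrays and in 0 above, against 11.3% and 11.5% of all genes. The shift was present within the replicates that share control readings: the member median was -0.115 over replicates 1 and 2 and -0.14 between the replicate 3 arrays.

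Uqcrq, a small complex III subunit, read 11.61, 11.57 and 11.63 in the wild type and 11.04, 11.29 and 11.17 in the knockout at E10.5, without overlap. It fell by 0.44 ± 0.10 on the log2 scale (SE; adjusted p = 0.0199). Atp5l read 12.16, 12.28 and 12.13 against 11.76, 11.99 and 11.74, a fall of 0.36 ± 0.098 (adjusted p = 0.0445). The knockout arrays were below all wild type arrays in both genes. Atp5j2, subunit f of the ATP synthase, read 13.04, 13.07 and 12.97 against 12.67, 12.77 and 12.60, a fall of 0.35 ± 0.087 (adjusted p = 0.0315), and its other 2 probe sets had the same sign. These 3 calls were fragile: Uqcrq passed in 16 of 23 alternative analyses, Atp5j2 in 14 and Atp5l in 9, with adjusted p up to 0.119, 0.115 and 0.168. Without any 1 of the wild type E10.5 arrays only 2 members were called, and without knockout E10.5 replicate 1 there were 3, of which 1 was higher.

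By role, the E10.5 knockout medians were -0.25 for the complex V membrane subunits, with 2 of 5 fallen, and -0.20 for complex III, with 1 of 8. They were -0.20 for the 4 complex II subunits, where 3 had non-overlapping arrays but none passed the test and none had an unadjusted p under 0.05. Sdha differed by -0.20, Sdhb by -0.087, Sdhc by -0.21 and Sdhd by -0.22. All 6 complex I core subunits lay below 0, at -0.24 to -0.063, with 0 called and 0 at an unadjusted p under 0.05. Among complex I accessory subunits 0 of 28 were called (4 had an unadjusted p under 0.05), with a median of -0.09, and F1 of complex V had a median of -0.077. The 12 assembly factors had a median of -0.15, with 0 called (3 had an unadjusted p under 0.05). Ndufs5, which rose most among accessory subunits in the knockout, differed by 0 at E10.5. For 76 of 94 members the 95% interval lay within 0.5 of 0 for the probe set used.

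**Figure D3:**
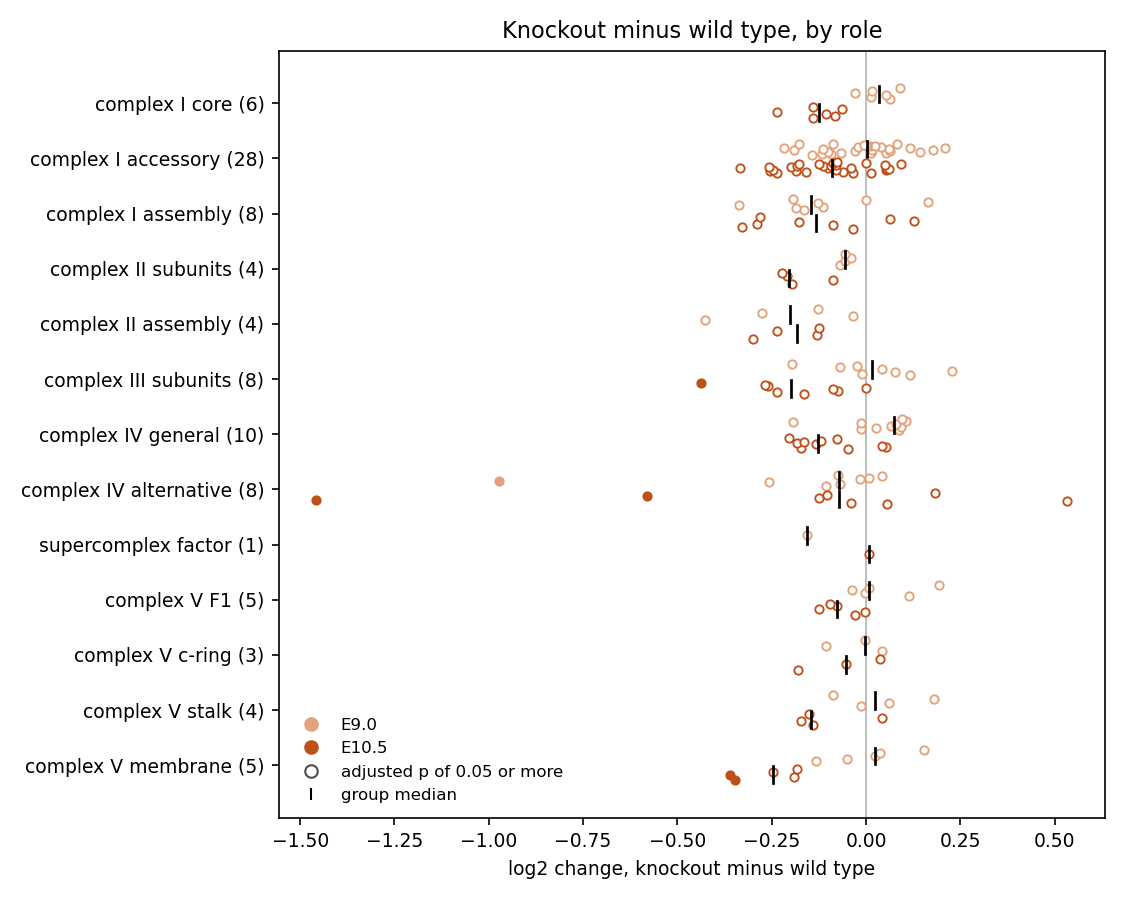
Log2 difference, knockout minus wild type (x axis), of each member by role (y axis, number of members in brackets) at E9.0 (light) and E10.5 (dark), with the median of each group as a black line; filled points have an adjusted p below 0.05. The single filled light point and the leftmost dark point are Cox7a1, at -0.97 and -1.46.

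Other values moved with genotype at E10.5. The summed visceral endoderm marker level was 17.04 to 17.11 in the wild type and 16.86 to 16.97 in the knockout, and 1 of 18 markers, the endocytic receptor Cubn, fell. The red blood cell level was 15.88 to 15.89 against 15.58 to 15.84, with 1 of 12 markers fallen. Endothelial markers rose in 3 of 16, smooth muscle and mesenchyme markers in 3 of 15, and white blood cell markers in 5 of 12, with 1 of 12 fallen. Over all genes 4.12% rose and 3.16% fell. The fallen shares of 5.56% for endoderm and 8.33% for red blood cell markers rest on 1 gene each. The actin 3' excess was 0.44 to 0.59 in the wild type and 0.33 to 0.47 in the knockout. The part of these in the lower member values was not tested.

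Among the probe sets used, the alternative isoforms of complex IV held the largest knockout differences. Cox7a1, the form of subunit 7a known from heart and skeletal muscle, read 7.05, 7.15 and 7.03 in wild type and 5.94, 6.36 and 6.01 in knockout yolk sacs at E9.0. The group means were 7.08 ± 0.064 and 6.10 ± 0.23 (SD, n = 3), a difference of -0.97 ± 0.14 (SE; 1.96-fold; adjusted p = 0.00692 by limma). No knockout array came near the wild type range. At E10.5 Cox7a1 read 7.82, 7.84 and 7.78 in the wild type and 6.59, 6.41 and 6.07 in the knockout, means of 7.81 ± 0.031 and 6.36 ± 0.26. That difference was -1.46 ± 0.14 (2.74-fold; adjusted p = 9.1e-05). Cox7a1 passed the test in all 22 alternative analyses in which it could be tested, at both stages, with differences of -1.10 to -0.89 at E9.0 and -1.57 to -1.31 at E10.5. Cox7a1 has 1 probe set, so the alternatives that change the probe set left its values as they were. It rose with stage in the wild type by 0.74 ± 0.14 (adjusted p = 0.0023) and changed by 0.25 in the knockout (adjusted p = 0.216), and these stage changes were not shown to differ (-0.48; adjusted p = 0.497).

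Cox7a2, the general form of the same subunit, differed by -0.013 at E9.0 and by -0.16 at E10.5, with adjusted p of 0.983 and 0.297. Its interval at E10.5 was -0.34 to 0.015, which does not overlap that of Cox7a1, -1.75 to -1.16. The 150 bases before the start of each gene are shown because this pair differs in response. None of the 3 motifs searched is in either stretch, so nothing is capitalised.
Cox7a1, chr7:30184021-30184170, plus strand: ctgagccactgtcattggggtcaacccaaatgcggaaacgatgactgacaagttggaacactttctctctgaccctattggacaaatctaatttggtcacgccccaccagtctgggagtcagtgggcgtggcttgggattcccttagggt
Cox7a2, chr9:79759854-79760003, minus strand: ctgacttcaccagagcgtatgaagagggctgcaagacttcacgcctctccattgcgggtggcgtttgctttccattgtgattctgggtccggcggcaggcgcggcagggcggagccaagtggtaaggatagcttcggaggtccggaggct

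Cox8b, the muscle form of subunit 8, was lower in the knockout at E10.5. It read 4.46, 4.50 and 4.35 in the wild type and 3.84, 3.78 and 3.95 in the knockout, a difference of -0.58 ± 0.11 (SE; adjusted p = 0.00807), and passed in all 21 alternatives that could test it. At E9.0 the wild type read 4.07, 4.35 and 4.18 and the knockout 4.07, 4.14 and 4.41, with the groups overlapping and a difference of 0.0067. These values are near the lower end of the scale, which ran from 2.03 to 14.49, where log2 changes are compressed. From E9.0 to E10.5 Cox8b fell by 0.35 ± 0.11 in the knockout (adjusted p = 0.0386, up to 0.151 without single arrays or with other settings) and changed by 0.24 in the wild type. Cox8a, the general form, differed by 0.11 and -0.077 between genotypes at the 2 stages, neither past the test.

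Because Cox7a1 and Cox8b are muscle forms, heart muscle markers were read beside them. They went the other way at E10.5: 7 of 20 rose in the knockout and none fell, against 4.12% and 3.16% of all genes. The largest rises were Myl7 at 3.21, Myl4 at 2.11 and Tnnt2 at 1.92, which encode contractile proteins of the heart. The summed log2 level of the 20 markers was 10.10 to 10.21 in wild type E10.5 arrays and 10.86 to 11.80 in knockout E10.5 arrays. At E9.0 no heart marker was called (5 of 20 had an unadjusted p under 0.05), and the levels of 9.85 to 10.67 and 9.92 to 10.24 overlapped. The heart marker median there was -0.13, against -0.0067 for all genes, with 14 of 20 below 0 and 6 above. At that stage the markers therefore leaned the same way as Cox7a1. Cox6a2, the muscle form of subunit 6a, differed by -0.07 at E9.0 and by -0.04 at E10.5.

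Cox6b2, the form of subunit 6b known from testis, had the largest rise with stage of any member in the knockout. It read 6.87, 6.63 and 6.91 at E9.0 and 7.34, 8.78 and 8.37 at E10.5, a rise of 1.36 ± 0.27 (SE; 2.57-fold; adjusted p = 0.0029). The 3 late arrays were above all early ones but spread over 1.44 units, with an SD of 0.74. In the wild type it read 6.94, 6.97 and 7.27 and then 7.69, 7.66 and 7.54, a change of 0.57 that did not pass the test (adjusted p = 0.154). Knockout and wild type did not differ at E10.5 by the test (0.53 ± 0.27; adjusted p = 0.291), since knockout replicate 1 lay below all wild type arrays and the other 2 above. Cox6b1, the general form, differed by -0.13 there.

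**Figure D4:**
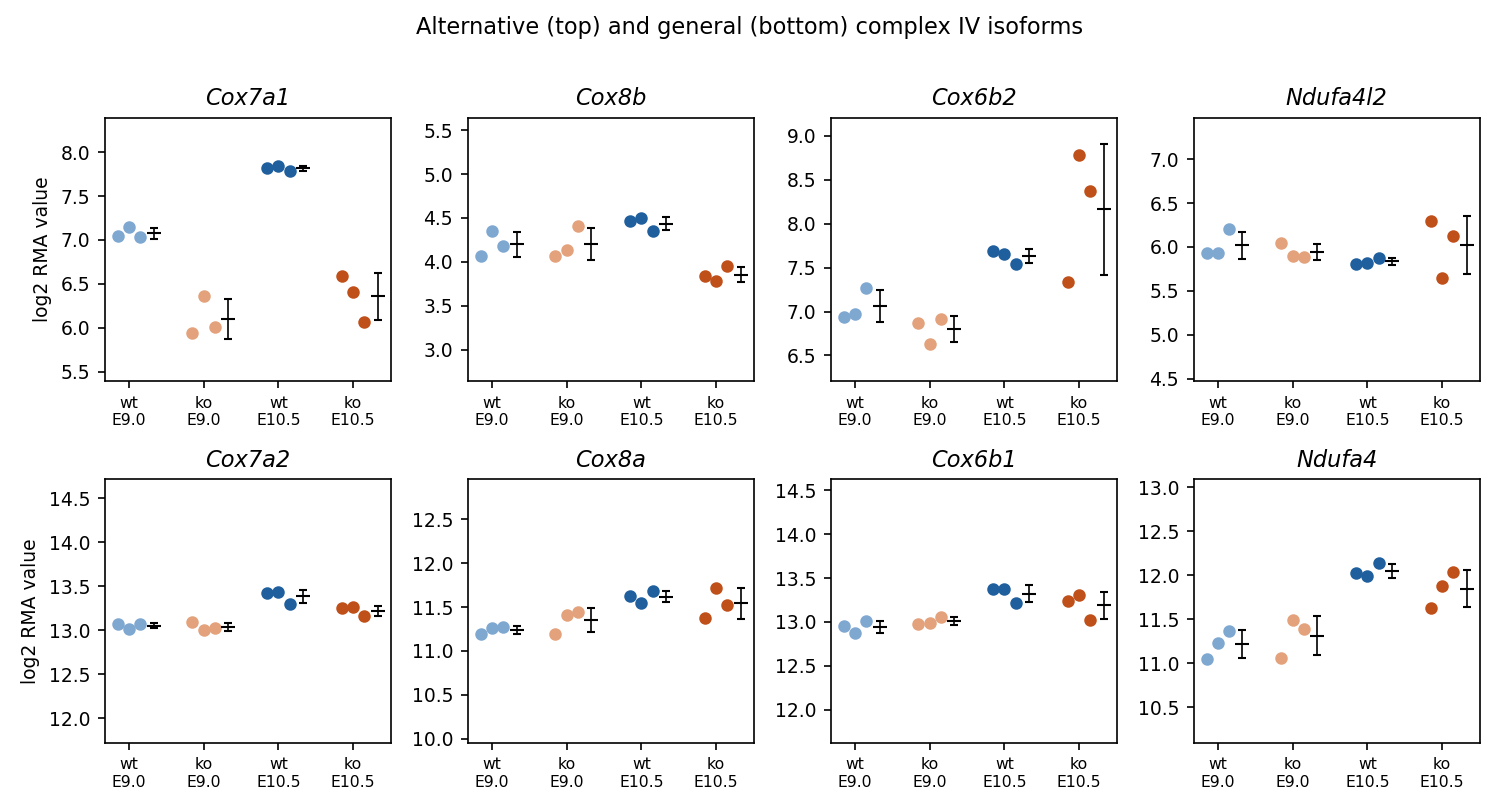
Log2 RMA values (y axis) of each array by genotype and stage (x axis) for 4 alternative complex IV genes (top) and their general counterparts (bottom), with the mean and SD of each group's 3 arrays beside the points; every panel spans the same number of log2 units. Cox7a1 knockout arrays at 5.94 to 6.59 lie below all wild type arrays, whereas the Cox7a2 groups lie close together within each stage.

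The remaining alternative forms did not pass the test in any comparison. Ndufa4l2 and Cox4i2, which are known to be induced when oxygen is low, differed by 0.18 and 0.057 between knockout and wild type at E10.5, with intervals of -0.13 to 0.50 and -0.22 to 0.34. Of a list of 23 genes of the hypoxia response, 8 rose in the same comparison and none fell, against 4.12% and 3.16% of all genes. The list median was 0.29, and the risers included Ddit4 at 2.10 and Adm at 1.39. Cox4i1, the general partner of Cox4i2, differed by -0.047, and Ndufa4 by -0.20. Cox8c and Cox7b2 differed by -0.10 and -0.12, and Cox6a1 by 0.043.

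Other mitochondrial gene lists were compared between genotypes at E10.5, where 3.16% of all genes fell and 4.12% rose. Assembly factors outside the member rule fell in 2 of 36 at E10.5, Cox16 by 0.61 and Sco2 by 0.54, both of which serve complex IV, with a list median of -0.175. None rose. The mitochondrial ribosome, which translates the mitochondrially encoded subunits, had 2 of 76 fallen, Mrpl10 by 0.40 and Mrps24 by 0.38, and a median of -0.14. Carriers of electrons and ATP had 0 of 9 called (2 at an unadjusted p under 0.05) and a median of -0.023. Citric acid cycle and pyruvate dehydrogenase genes had 1 of 21 risen, Pdk3, a kinase that restrains pyruvate dehydrogenase, by 0.31, and a median of -0.07. Of 24 regulators of mitochondrial genes 1 fell at E10.5, Mterf1a, a mitochondrial transcription terminator, by 0.46 (adjusted p = 0.0092), and it was also the only one called at E9.0, where it fell by 0.44 (adjusted p = 0.0396).

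The same lists were read from E9.0 to E10.5, beside 13.4% of all genes risen and 8.86% fallen in the wild type and 14.4% and 9.17% in the knockout. Mitochondrial ribosome genes had 20 of 76 risen and 4 fallen in the wild type with a median of 0.11, and 11 and 7 in the knockout. Under median centring these became 9 and 7, and 3 and 14, so the direction of that list is not settled. Among regulators 5 of 24 rose and 7 fell in the wild type: Ppargc1b fell by 1.21 and Pprc1 by 0.86, both coactivators of mitochondrial biogenesis, and the mitochondrial RNA polymerase Polrmt fell by 0.62. In the knockout 5 rose and 9 fell, with Ppargc1b down by 1.41. Citric acid cycle genes had 9 of 21 risen and 1 fallen in the wild type, with Dld up by 0.74 and citrate synthase, Cs, down by 0.61, and 9 and 3 in the knockout. Assembly factors outside the rule had 8 of 36 risen and 4 fallen, and 5 and 7 in the knockout. Among the 9 carriers 0 were called in the wild type (2 at an unadjusted p under 0.05), and in the knockout cytochrome c1, Cyc1, fell by 0.55 and the phosphate carrier Slc25a3 by 0.26.

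Some members are read less well than others. Of the members, 53 have more than 1 probe set. Cox7a1, Cox8b and Cox6b2 have 1 each, so no second reading stands beside theirs. Between genotypes some unused probe sets differed more than the one used. An Ndufaf4 one, at a mean of 8.34, differed by -0.64 at E9.0 and -0.75 at E10.5, against -0.34 and -0.29. A dim Ndufab1 one, at 3.91, differed by -1.10 and -1.09, against 0.017 and 0.06. The highest values of unused ones were 0.33 at both stages, for Atp5o and Ndufa12. No test of these is given here. In the wild type stage comparison 6 of the 37 other probe sets of called members did not share the sign of the one used (Cox8a, Ndufa3, Ndufaf4, Ndufb2, Ndufs4 and Uqcrq), and in the knockout 4 of 32 did not (Atp5j2, Cox5b, Ndufa3 and Ndufb2). Brighter probe sets of Ndufb4 name several genes and were not used, which leaves it with a dim one at a mean of 3.52. Cox7b2, at 2.88, is also dim. Cox7c, counted among the general complex IV subunits, was read at only 6.94, and at 5.55 by its other probe set. Ndufaf3 and Uqcrc1 lie within 10 Mb of Setd2 on chromosome 9, where DNA of the strain that carried the deletion can remain linked to it; neither passed the test between genotypes.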

How the data were processed

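Expression was deposited on the log2 scale; the submitters' processing notes name RMA as the authors' method. It subtracts background, gives every array 1 shared distribution and condenses each probe set to 1 value, so a change shared by all transcripts is removed and changes of dim genes are compressed. The version is not given in the sources used here. Of 45101 probe sets, 64 controls were left out, and 34945 name 1 symbol in the platform annotation; the brightest over 12 arrays stood for each of 18193 genes. A model with 1 mean per group was fitted with limma 3.58.1 in R 4.3.3 (lmFit, eBayes; 8 residual and 4.56 prior degrees of freedom), two-sided, for 5 comparisons. P-values measure the spread between 3 pools per group, which the design text calls biological repeats. Arrays give no depth, so their number limits the precision.

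Members and lists were chosen with earlier results of these data known, and roles were assigned from textbook knowledge after the values were seen. Named are up to 12 called rises and 12 falls of a comparison, the complex IV isoforms, complex II and Setd2; other members are named to complete their role group. A clause of that rule on the brightest and dimmest members was not used, since probe sets are not comparable in level. Cox7b was not analysed here. On simulated data of 18193 genes, the E10.5 genotype comparison recovered 12 of 50 genes changed by 0.5 and 42 of 50 changed by 1, with 5 false calls. That simulation changed far fewer genes than were called in the data (1325 at E10.5). Its spreads were those of all genes, so these shares are not the sensitivity for the members. Replicate numbers were not used to pair the samples. To look for pairing, each gene's group mean was subtracted and the remainders were correlated between arrays over all genes. Same-number correlations of these remainders between genotypes were 0.034, 0.23 and 0.24 at E9.0 and 0.26, 0.067 and 0.40 at E10.5. Different-number ones ran from -0.36 to 0.26 and from -0.35 to 0.17. Those between replicate 3 and replicates 1 or 2 were -0.36 to 0.020 and -0.35 to -0.15, so replicate 3 stood apart in both genotypes. Alternatives covered the probe set, scaling, brightness, groups fitted, moderation, blocks and single arrays.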

Additional observations from a re-analysis of the deposited data

How the results depend on the processing

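Counts below are members called by limma. At E9.0, knockout against wild type gave 1, with 2 for the probe set of largest variance and 0 among genes with a 12-array mean above 9 (an alternative added after the data were seen, which leaves out Cox7a1). At E10.5 it gave 5, with 2 when the groups were compared alone, 2 in replicates 1 and 2 alone and 3 above 9. The knockout stage comparison gave 32, with 20 after median centring and 15 when its groups were compared alone. Leaving out single arrays gave 1 to 2 and 2 to 6 for the genotype comparisons, 0 to 0 for the difference between them, 33 to 45 for the wild type stage comparison and 16 to 39 for the knockout one. With the probe set of largest variance the wild type stage change reversed in sign for Cox8a (-0.04) and Ndufaf4 (0.087). The replicate block gave 1, 6, 0, 45 and 36 for the 2 genotype comparisons, their difference and the 2 stage comparisons, and it moved no count by over 1.5 times; the labels give the numbers but do not say that they mark shared material. Replicate 3 as a block gave 1, 7, 0, 50 and 44. Every alternative kept Cox7a1 at both stages where it was tested; of the 42 wild type stage calls 27 were kept in every setting and of the 32 knockout ones 7. The cause was not tested. With 3 arrays a group small changes can be missed. The self-test for E10.5 recovered 1 of 50 genes changed by 0.3. Because it changed far fewer genes than were called in the data, its threshold was stricter and this share is not the sensitivity for the members.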
